A study of Rattus norvegicus with 8 samples.

Results

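Enzymes that break down amino acids and turn the released nitrogen into urea were followed in the liver of adult male rats after developmental exposure to agonists of the aryl hydrocarbon receptor (AhR). The set held 35 genes chosen by pathway, from the urea cycle and from the breakdown of aromatic, histidine, sulfur, branched-chain, glycine, serine, proline, ornithine and lysine carbon. A gene was found through the RefSeq accession of its array probe, and its brightest probe in the liver channel stood for it if that probe cleared the background on 4 or more of the 8 arrays. Under this rule 32 of the 35 genes were measured, among 10028 named genes measured in all, and each of the 32 was above background on all 8 arrays. Uroc1, Gldc and Shmt1 had no matched probe and are not analysed here.

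The arrays compared 4 pools of RNA from offspring of dams given corn oil alone (control) with 4 pools from offspring of dams given non-ortho-PCBs, dioxins and furans in corn oil (AhR). The dose was 1.8 ng TCDD toxic equivalents per kg per day from gestation day 0 to postnatal day 20. All animals were Sprague-Dawley males kept with their birth mothers and sampled at 78 to 86 days of age, long after the last dose. Each pool joined 2 rats of 1 group, so single animals were not resolved, and whether pools shared a litter was not analysed here. Liver RNA carried Cy5 and a reference RNA labelled as coming from 14 rat cell lines carried Cy3 on all 8 arrays of 1 slide, and every value below is a log2 ratio of Cy5 over Cy3 or a difference between such ratios.

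The median Cy5 signal lay between 159 and 232 units per array over a background of 71 to 76 units, and 56.3% to 62.1% of probes were well above background. The number of arrays limits the precision. All 10 hepatocyte markers were measured, with a median ratio per array between 0.25 and 0.45. Of other cell types, the 11 Kupffer cell and macrophage markers had array medians of -0.69 to 0.19 in control and -0.21 to 0.47 in AhR, and the 5 measured erythroid markers -0.81 to 0.31 and -1.41 to -0.12. The mean was higher in AhR for 10 of the 11 Kupffer cell markers, and for 4962 of the 10028 named genes. Control replicate 1 was the lowest control array in each of the 11 Kupffer cell markers. Its median over them was -0.69, against 0.19, 0.19 and -0.01 on control replicates 2 to 4. Means were also higher in AhR for all 7 measured endothelial markers and 9 of 10 stellate cell and fibroblast markers, and lower for all 5 erythroid markers. Dcn, the fibroblast proteoglycan decorin, was the only one of these markers with an unadjusted p under 0.05, at a difference of 0.33 (limma unadjusted p = 0.0124, limma adjusted p = 1.00). Among all probes, 1.62% had such a p. The groups did not overlap in Dcn or in the endothelial marker Tie1 (0.21, limma unadjusted p = 0.0502, exact permutation p = 0.0286), against 1.2% of all probes. None of these markers passed the test (limma, adjusted p of 0.05), and their part in the values of the enzymes was not tested. In RNA from whole tissue, fewer cells of a type and less RNA per cell cannot be told apart.

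As background, the liver is the main site of amino acid breakdown. Aminotransferases and dehydratases remove the amino group, and the carbon skeletons enter gluconeogenesis, ketone body formation or the citric acid cycle. The urea cycle, split between mitochondria and cytosol and most active in periportal hepatocytes, converts ammonia into urea. Transcripts of many of these enzymes are raised by glucocorticoids, glucagon, fasting and dietary protein. Kynurenine, which forms from tryptophan after the step of Tdo2, is itself a ligand of the AhR.

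Promoter sequences were available for 28 of the 35 genes from RefSeq (assembly GRCr8), as windows of 250 bases before and 50 bases after the start of transcription. The core of the AhR response element, GCGTG, was present on either strand in 8 of the 28 windows (28.6%) and in 29.7% of all 33469 promoters. Windows of Ass1, Bckdhb, Fah, Gls2, Glud1, Got1, Hibch and Otc held it. The D-box TTATGNAA, the element bound by the clock output factor Dbp, was present in 1 window, that of Otc (3.57% against 3.66%). The E-box CACGTG was in those of Cth and Shmt1 (7.14% against 6.42%), and the TATA box TATAAA in those of Ass1, Ftcd and Tdo2 (14.2% of all promoters held it). Neither the cAMP response element TGACGTCA nor the C/EBP palindrome TTGCGCAA was in any of the 28 windows, against 1.83% and 0.17% of all promoters. These shares lay near those of all promoters, and a match describes letters only. The following sequences are the 250 bases upstream of Otc, which had the smallest p of the set between the groups, and of Tdo2 and Gls2, which had the highest correlations of the set with Dbp over the arrays, each written 5′ to 3′ on the gene's strand with the matches in capitals.
Otc, chrX:15202474-15202723, minus strand: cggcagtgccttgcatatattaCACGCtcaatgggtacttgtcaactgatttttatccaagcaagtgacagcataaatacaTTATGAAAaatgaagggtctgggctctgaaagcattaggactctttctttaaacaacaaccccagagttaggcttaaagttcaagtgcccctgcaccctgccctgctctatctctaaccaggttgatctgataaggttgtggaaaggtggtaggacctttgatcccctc
Tdo2, chr2:169585587-169585836, minus strand: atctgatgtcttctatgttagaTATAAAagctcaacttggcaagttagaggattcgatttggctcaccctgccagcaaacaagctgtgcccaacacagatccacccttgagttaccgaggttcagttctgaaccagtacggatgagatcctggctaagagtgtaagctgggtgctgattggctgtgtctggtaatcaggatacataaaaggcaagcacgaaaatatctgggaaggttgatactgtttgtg
Gls2, chr7:1201629-1201878, plus strand: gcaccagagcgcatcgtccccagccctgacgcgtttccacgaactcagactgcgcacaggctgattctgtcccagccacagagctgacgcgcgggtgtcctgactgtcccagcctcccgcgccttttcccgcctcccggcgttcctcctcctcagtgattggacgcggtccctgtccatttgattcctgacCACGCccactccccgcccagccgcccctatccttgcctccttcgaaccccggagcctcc
In the Otc sequence the capitals are the AhR core read on the opposite strand, at bases -228 to -224 from the start, and the D-box at -169 to -162. The capitals mark the TATA box at -228 to -223 in Tdo2 and the AhR core on the opposite strand at -59 to -55 in Gls2.

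Between the AhR and control groups, no enzyme of the set passed the test. With limma and Benjamini-Hochberg adjustment over all 17891 probes kept, 0 of the 32 genes reached an adjusted p of 0.05 (0% of all probes did, and the lowest limma adjusted p was 1.00). At an unadjusted p under 0.05 the count was also 0 of 32, while 1.62% of all probes (290) lay under it, 0.85% higher and 0.771% lower in AhR. In 0 of the 32 genes were the groups without overlap, against 1.2% of all probes. The mean was higher in AhR for 12 genes and lower for 20, with a median difference of -0.03 over the set and 0.00 in size over all named genes. This split turned to 19 higher and 13 lower with median centring of the arrays, which itself moved the median of all named genes to 0.05, and to 22 higher and 10 lower without control replicate 4.

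The differences of the 32 genes ran from -0.27 for Bckdhb to 0.25 for Asl. The 95% interval of the difference stayed within 1.5-fold in both directions for 23 genes and within 2-fold for 31, the exception being Sds. The median SE was 0.16 for the set and 0.12 over all probes. Each array was left out in turn. The share of all probes with an unadjusted p under 0.05 then became 4.59% without control replicate 4, 2.83% without AhR replicate 4 and 1.08% without AhR replicate 1. In the set this brought Ass1 (0.42, limma unadjusted p = 0.0355) and Gpt (0.39, limma unadjusted p = 0.0306) under it without control replicate 4. It did the same for Cth without control replicate 2 (-0.38, limma unadjusted p = 0.00433) and for Otc without AhR replicate 2 (-0.31, limma unadjusted p = 0.0157), where the share of all probes was 1.49% and 2.11%. The adjusted p of these 4 values was 0.912 or higher.

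**Figure D1:**
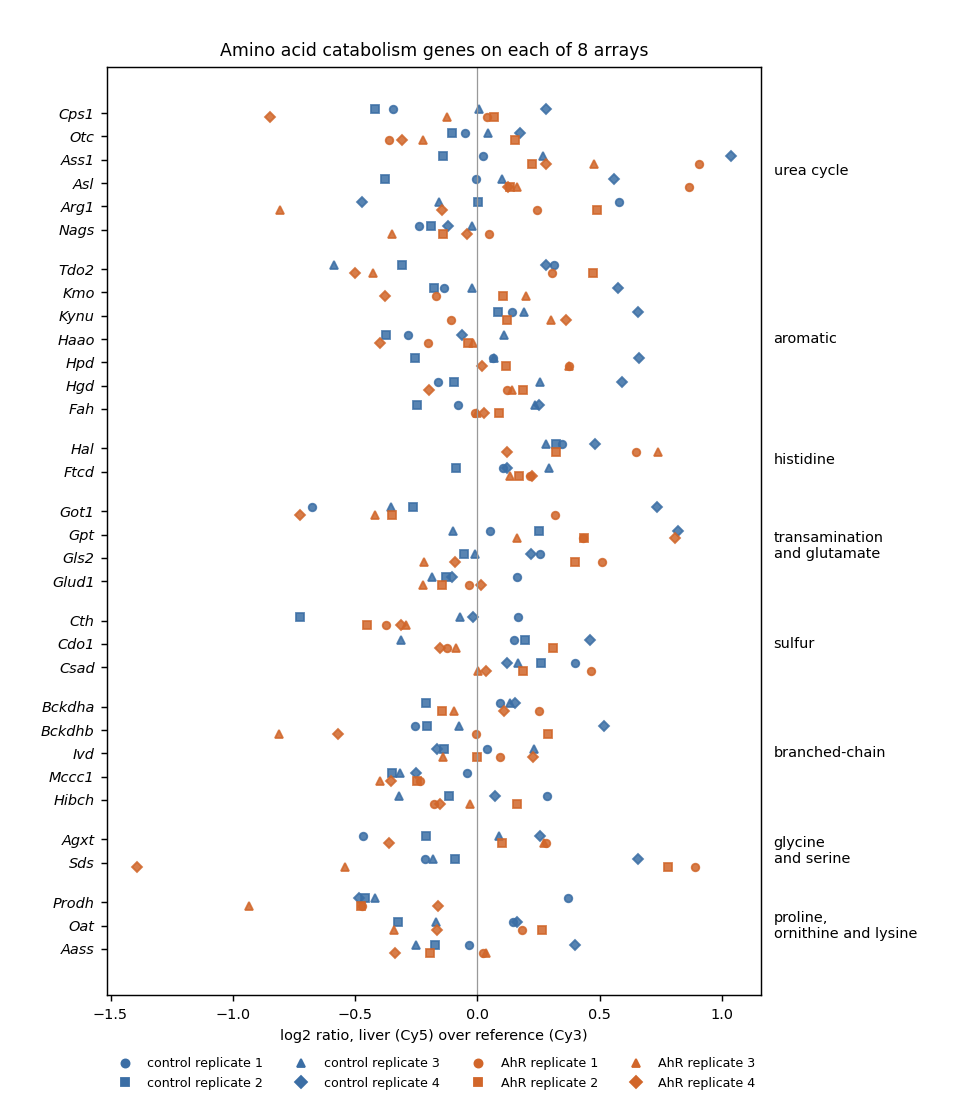
Log2 ratio of liver (Cy5) over reference (Cy3) for each of the 32 measured genes on the 4 control arrays (blue) and the 4 AhR arrays (orange), with genes grouped by pathway step and replicates told apart by symbol. The groups overlap in every gene, and Sds spans the widest range, with -1.39 and 0.89 both in the AhR group.

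**Figure D2:**
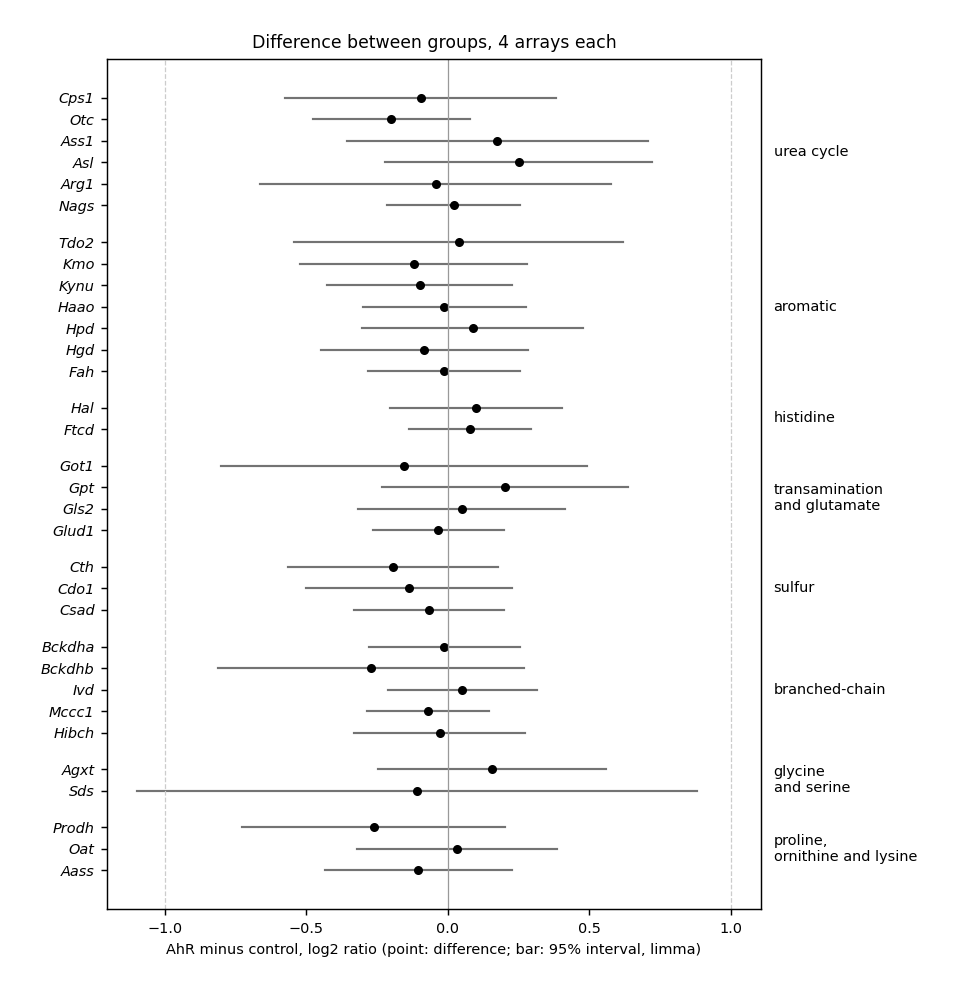
Difference between the groups, AhR minus control, in the log2 ratio of each measured gene (points) with its 95% interval from limma (bars), 4 arrays a group. Dashed lines mark a 2-fold difference either way, and every interval spans 0.

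The 6 urea cycle enzymes were all measured and had a median difference of -0.01, with 3 means higher and 3 lower in AhR. Cps1, the mitochondrial synthetase that fixes ammonia as carbamoyl phosphate and commits it to the cycle, had control ratios of -0.34, -0.42, 0.01 and 0.28 and AhR ratios of 0.04, 0.07, -0.12 and -0.85. Its lowest value was on AhR replicate 4 and the other 3 AhR arrays lay inside the control range. The difference was -0.10 (SE 0.22, 95% interval -0.58 to 0.38, exact permutation p = 0.800). Otc, which joins carbamoyl phosphate to ornithine and whose upstream sequence is given above, had control ratios of -0.05, -0.11, 0.04 and 0.17 and AhR ratios of -0.36, 0.15, -0.22 and -0.31. Of the AhR arrays 3 lay below all control arrays and AhR replicate 2 lay among them. Otc differed by -0.20 (SE 0.13, 95% interval -0.48 to 0.08, limma unadjusted p = 0.140, exact permutation p = 0.171), the smallest p of the set.

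Arg1, the arginase that releases urea and returns ornithine to the cycle, had control ratios of 0.58, 0.00, -0.16 and -0.47 and AhR ratios of 0.24, 0.49, -0.81 and -0.15. Its difference was -0.04 (SE 0.28, exact permutation p = 0.886), and its 8 arrays spanned 2.62-fold. Both groups held high and low arrays. Ass1 and Asl, which add the aspartate nitrogen through argininosuccinate and then split it, had the highest group differences of the cycle, 0.17 (SE 0.24) and 0.25 (SE 0.21). In Ass1 the high arrays were control replicate 4 (1.04) and AhR replicate 1 (0.91), and the same arrays were high in Asl (0.56 and 0.86). Nags, whose product N-acetylglutamate activates Cps1, differed by 0.02 (SE 0.11) and spanned 1.31-fold over the 8 arrays, the least of the cycle. Of 5 other genes listed with the cycle, only Slc25a22, a mitochondrial glutamate carrier, was measured, and it differed by -0.14 (SE 0.12, exact permutation p = 0.343).

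The 7 aromatic amino acid enzymes had a median difference of -0.01, with 2 means higher and 5 lower in AhR. Tdo2, the haem-dependent dioxygenase that opens the tryptophan ring and starts the kynurenine pathway, had control ratios of 0.31, -0.31, -0.59 and 0.28 and AhR ratios of 0.30, 0.47, -0.43 and -0.50. Each group held a pair of high and a pair of low arrays with none near 0. The difference was 0.04 (SE 0.26, 95% interval -0.54 to 0.62, exact permutation p = 0.857). Kynu, which cleaves 3-hydroxykynurenine, had control ratios of 0.14, 0.08, 0.19 and 0.65 and AhR ratios of -0.11, 0.12, 0.30 and 0.36. It was highest on control replicate 4 and lowest on AhR replicate 1, a difference of -0.10 (SE 0.15, exact permutation p = 0.571). The other kynurenine enzymes, Kmo (the monooxygenase that makes 3-hydroxykynurenine) and Haao (which opens the ring of 3-hydroxyanthranilate), differed by -0.12 (SE 0.18) and -0.01 (SE 0.13).

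The tyrosine enzymes Hpd, Hgd and Fah, which take 4-hydroxyphenylpyruvate through homogentisate to fumarate and acetoacetate, differed by 0.09 (SE 0.18), -0.08 (SE 0.17) and -0.01 (SE 0.12). All 3 were highest on control replicate 4, at 0.66, 0.59 and 0.25. In Fah the AhR arrays lay within -0.01 to 0.09 and the control arrays within -0.25 to 0.25. Of the other aromatic genes listed beside the set, 12 of 13 were measured, 5 higher and 7 lower in AhR, and none had an unadjusted p under 0.05. Tat, the glucocorticoid-inducible aminotransferase that starts tyrosine breakdown, had control ratios of -0.16, 0.22, 0.06 and 0.59 and AhR ratios of 0.50, 0.59, -0.51 and -0.47. As in Tdo2, AhR replicates 1 and 2 were high and AhR replicates 3 and 4 low. Tat differed by -0.15 (SE 0.27, exact permutation p = 0.657). Kyat1, a kynurenine aminotransferase, had the smallest p of the 12, with a difference of 0.15 (SE 0.09, exact permutation p = 0.0571).

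Both measured histidine enzymes had the higher mean in AhR, and their median difference was 0.09. Hal, the lyase that removes ammonia from histidine to give urocanate, had control ratios of 0.35, 0.32, 0.28 and 0.48 and AhR ratios of 0.65, 0.32, 0.74 and 0.12. Its control arrays lay close together, and the AhR arrays reached beyond them on both sides. The difference was 0.10 (SE 0.14, exact permutation p = 0.514). Ftcd, which passes the formimino group of histidine to tetrahydrofolate, had control ratios of 0.10, -0.09, 0.29 and 0.12 and AhR ratios of 0.22, 0.17, 0.13 and 0.22. The AhR values all fell inside the control range, and the difference was 0.08 (SE 0.10, exact permutation p = 0.429). Within the rows of the slide, with 2 arrays a group in each, the median of this pair of enzymes was -0.05 in row 1 and 0.23 in row 2.

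The 4 genes of transamination and glutamate metabolism had a median difference of 0.01. Got1, the cytosolic aspartate aminotransferase, had control ratios of -0.68, -0.26, -0.35 and 0.73 and AhR ratios of 0.32, -0.35, -0.42 and -0.72. One array of each group was high, control replicate 4 and AhR replicate 1, and the other 6 were below 0. Got1 differed by -0.15 (SE 0.29, 95% interval -0.80 to 0.49, exact permutation p = 0.600). Gpt, the alanine aminotransferase that links muscle alanine to hepatic glucose production, had control ratios of 0.05, 0.25, -0.10 and 0.82 and AhR ratios of 0.43, 0.43, 0.16 and 0.81. Apart from control replicate 4 the control arrays reached at most 0.25, and 3 of the 4 AhR arrays lay above that. The difference was 0.20 (SE 0.20, exact permutation p = 0.457).

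Gls2, the liver glutaminase that releases ammonia from glutamine, differed by 0.05 (SE 0.17), and its AhR arrays were split between 0.51 and 0.40 on replicates 1 and 2 and -0.22 and -0.09 on replicates 3 and 4. Glud1, the mitochondrial glutamate dehydrogenase, differed by -0.03 (SE 0.10), with an interval of -0.26 to 0.20. All 8 other genes of this step were measured, 4 higher and 4 lower, and none had an unadjusted p under 0.05.

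The sulfur enzymes Cth, Cdo1 and Csad all lay lower on average in AhR, and their median difference of -0.14 became -0.07 with median centring, where 2 of the 3 were lower, and 0.04 within row 2 of the slide. Cth, which cleaves cystathionine to cysteine, had control ratios of 0.17, -0.73, -0.07 and -0.02 and AhR ratios of -0.37, -0.45, -0.29 and -0.31. The AhR arrays lay close together, below 3 control arrays and above control replicate 2. Cth differed by -0.19 (SE 0.17, 95% interval -0.57 to 0.18, exact permutation p = 0.400). Cdo1, the cysteine dioxygenase that commits cysteine to taurine and sulfate, differed by -0.14 (SE 0.16), and Csad, the decarboxylase on the way to taurine, by -0.07 (SE 0.12). Of the 12 other sulfur genes, all measured, 8 were higher and 4 lower, with a median difference of 0.07.

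The gene of smallest p among these 12 was Bhmt, which remethylates homocysteine with betaine. It had control ratios of 0.81, -0.10, 0.46 and -0.05 and AhR ratios of -0.28, -0.20, -0.31 and -0.29. The groups did not overlap, and the control arrays spread widely above a narrow AhR group. The difference was -0.55 (SE 0.18, 95% interval -0.95 to -0.15, limma unadjusted p = 0.0119, exact permutation p = 0.0286, the smallest that 4 against 4 arrays can give), and it did not pass over all probes (limma adjusted p = 1.00).

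The 5 branched-chain enzymes had a median difference of -0.03, with 1 mean higher and 4 lower. Bckdhb, a subunit of the dehydrogenase that commits branched-chain keto acids to breakdown, had control ratios of -0.25, -0.20, -0.07 and 0.52 and AhR ratios of -0.01, 0.29, -0.81 and -0.57. AhR replicates 3 and 4 lay below all control arrays, and the other AhR pair lay within the control range. The difference was -0.27 (SE 0.24, 95% interval -0.81 to 0.27, exact permutation p = 0.429). Bckdha, the partner subunit, differed by -0.01 (SE 0.12). Ivd, which acts on isovaleryl-CoA from leucine, differed by 0.05 (SE 0.12), and Mccc1, a subunit of the leucine pathway carboxylase, by -0.07 (SE 0.10). Mccc1 spanned 1.28-fold over the 8 arrays, the narrowest range of all 32 genes. Hibch, of valine breakdown, had a pair of probes that gave -0.03 and -0.04 and followed each other over the arrays. Of 19 other branched-chain genes 16 were measured, 5 higher and 11 lower, with Dbt, the core subunit of the same dehydrogenase, at 0.21 (SE 0.11, limma unadjusted p = 0.0957, exact permutation p = 0.114).

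Of the glycine and serine enzymes, Agxt and Sds were measured. Agxt, the peroxisomal aminotransferase that detoxifies glyoxylate to glycine, had control ratios of -0.47, -0.21, 0.09 and 0.26 and AhR ratios of 0.28, 0.10, 0.27 and -0.36. Of the AhR arrays 3 were above 0 and AhR replicate 4 was near the lowest control array, a difference of 0.16 (SE 0.18, exact permutation p = 0.429). Sds, the serine dehydratase that turns serine into pyruvate and rises with fasting, glucagon and protein intake, had control ratios of -0.21, -0.09, -0.18 and 0.66 and AhR ratios of 0.89, 0.78, -0.54 and -1.39. The highest pair and the lowest pair of all 8 arrays were AhR arrays, so the AhR group enclosed the control group. Sds differed by -0.11 (SE 0.45, 95% interval -1.10 to 0.88, exact permutation p = 0.771).

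Of 19 other glycine and serine genes 18 were measured, 5 higher and 13 lower. Pipox, which oxidises sarcosine and pipecolate, had the smallest p, with control ratios of 0.53, -0.03, 0.32 and -0.45 and AhR ratios of -0.24, -0.25, -0.43 and -0.36. It was high on control replicates 1 and 3, as Bhmt was, and its control replicate 4 was the lowest array. The difference was -0.42 (SE 0.18, limma unadjusted p = 0.0441, limma adjusted p = 1.00, exact permutation p = 0.143). Over all 88 other genes of these pathways 76 were measured, 30 higher and 46 lower, with a median difference of -0.03. Of these, 0 passed the adjusted threshold. An unadjusted p under 0.05 was found in 2 of the 76, Bhmt and Pipox, against 1.62% of all probes in either direction. Both were lower in AhR, as were 0.771% of all probes at that p. The groups were without overlap in 2, Bhmt and Psph, the last enzyme of serine synthesis, which differed by -0.07 (SE 0.08), against 1.2% of all probes.

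Of the remaining 3 enzymes, Prodh, the first enzyme of proline oxidation, had control ratios of 0.37, -0.46, -0.42 and -0.48 and AhR ratios of -0.47, -0.47, -0.93 and -0.16. Control replicate 1 stood above the other 7 arrays and AhR replicate 3 below them. Prodh differed by -0.26 (SE 0.21, 95% interval -0.73 to 0.20, exact permutation p = 0.371), and its other probe gave -0.27. Oat, which moves the amino group of ornithine, differed by 0.03 (SE 0.16), and Aass, the bifunctional enzyme that starts lysine breakdown, by -0.10 (SE 0.15). The 9 measured of 10 other genes of this step were 3 higher and 6 lower, and Odc1, which makes putrescine from ornithine, had the smallest p, at 0.35 (SE 0.18, limma unadjusted p = 0.0751, exact permutation p = 0.171).

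While the groups did not separate, pools of the same group differed more in these enzymes than in most genes. The SD within groups, pooled over both groups, had a median of 0.27 over the set and 0.17 over all named genes, and was above that median in 28 of the 32. Over the 858 named genes at least as bright in Cy5 as the median of the set, the median was 0.20. The SD passed 0.3 in 12 of the 32 (37.5%), in 10.9% of all named genes and in 17.9% of those bright genes. The median SD was 0.20 over the 76 other pathway genes measured and 0.24 over the 10 hepatocyte markers. It was 0.41 over 8 glucocorticoid and fasting responsive genes, and 0.40 over both 12 clock genes and 11 Kupffer cell and macrophage markers. A wide spread was thus not particular to these enzymes. These shares and medians are descriptions without a test. Sds had the largest SD, 0.83, rank 33 of 10028 genes, and its 8 arrays spanned 4.86-fold. Got1 followed at 0.53, Arg1 at 0.51 and Tdo2 at 0.47, ranks 142, 175 and 227. The steadiest were Ftcd and Mccc1, both at 0.11. By step, the median SD was 0.57 in the glycine and serine pair, 0.38 in the urea cycle, 0.31 in transamination and glutamate, 0.28 in aromatic and 0.27 in sulfur enzymes. It was 0.26 in proline, ornithine and lysine, 0.18 in branched-chain and 0.16 in histidine enzymes.

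**Figure D3:**
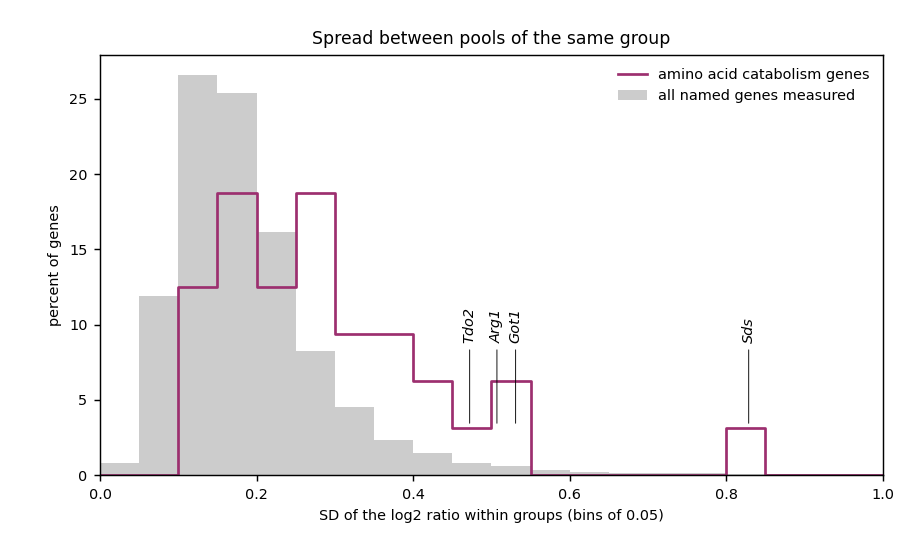
Percent of genes (vertical axis) by SD of the log2 ratio within groups (horizontal axis, bins of 0.05) for the 32 enzymes (line) and all 10028 named genes measured (grey). The line lies to the right of the grey bars, with Tdo2, Arg1, Got1 and Sds marked at 0.47, 0.51, 0.53 and 0.83.

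The arrays differed in the whole set as well as in single genes. The median over the 32 enzymes was 0.04, -0.18, -0.02 and 0.25 on control replicates 1 to 4 and 0.11, 0.13, -0.09 and -0.15 on AhR replicates 1 to 4. The corresponding medians over all named genes lay within 0.02 of 0 on every array. Control replicate 4 was the highest of the 8 arrays for 13 enzymes (40.6%) and for 15.0% of all named genes. Its signal and share of probes above background lay inside the ranges of the other arrays, while its Cy5 background of 76 units was the highest, against 71 to 75. The lowest array was AhR replicate 3 for 9 enzymes (28.1%) and AhR replicate 4 for 8 (25%), against 10.6% and 13.2% of all named genes. The aromatic enzymes were the most raised on control replicate 4, with a median of 0.58, and the glycine and serine pair the lowest on AhR replicate 4, at -0.88.

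The spread between arrays was also set against that of Dbp, a clock output factor whose transcript cycles steeply over the day. Dbp ratios were 0.32, -1.36, -1.52 and -0.42 in control and 1.41, 1.22, 0.08 and -2.21 in AhR. A slope on Dbp with the group as a term was added to limma after the values were seen. Over 17888 probes, 0.0168% had an adjusted p under 0.05 and 7.47% an unadjusted p under 0.05, 3.11% with a positive slope. Of the 32 enzymes 0 passed the adjusted threshold (lowest limma adjusted p 0.397). An unadjusted p under 0.05 was found in 5, all with positive slopes: Sds (0.52 per log2 unit of Dbp, SE 0.12), Tdo2 (0.30, SE 0.07), Cps1 (0.20, SE 0.08), Gls2 (0.16, SE 0.05) and Oat (0.14, SE 0.06). Slopes were above 0 in 26 of the 32, a count given without that over all probes. The enzymes shared shifts between arrays, so these signs are not independent of each other.

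Each of the 32 enzymes was also correlated with Dbp over the 8 arrays. Tdo2 gave r = 0.806 (exact permutation p = 0.0299) and rho = 0.833 (exact permutation p = 0.0154), and r = 0.752 without AhR replicates 4 and 1, the arrays farthest from the median of Dbp. Sds gave r = 0.745 (exact permutation p = 0.0322) and rho = 0.643 (exact permutation p = 0.0962). Its r of 0.391 without those arrays means that the relation rested on them. Gls2 gave r = 0.756 (exact permutation p = 0.0372) and rho = 0.738 (exact permutation p = 0.0458), and r = 0.597 without them. Cps1 gave r = 0.587 (exact permutation p = 0.124), and r = 0.188 without those arrays. For Oat, r was 0.676 (exact permutation p = 0.0742), and 0.645 without them. Within control alone, r was 0.932 for Tdo2, 0.948 for Gls2 and 0.868 for Oat, but 0.169 for Sds and -0.028 for Cps1. Within AhR it was 0.845, 0.737, 0.649, 0.963 and 0.984, in the same order. The median r was 0.319 over the set and 0.0135 over all named genes. These tests are two-sided and not adjusted, while the limma fit above gives the adjusted values (0.421 for Tdo2, 0.397 for Sds and 0.598 for Gls2). Fitted within rows of the slide, with 4 arrays in each, the slope was 0.33 (SE 0.07) in row 1 and 0.57 (SE 0.15) in row 2 for Tdo2. It was 0.49 (SE 0.12) and 0.98 (SE 0.15) for Sds, and 0.14 (SE 0.07) and 0.46 (SE 0.15) for Gls2. With 4 arrays for an intercept, a group term and a slope, these SEs rest mostly on variances that limma pools over probes. The rows divide the same 8 arrays on which the relation was seen, so they are no independent check of it. Slopes were above 0 in 22 and 30 of the 32 enzymes, again without the count over all probes. The lowest limma adjusted p of the set was 0.664 in row 1 and 0.194 in row 2. The windows of Tdo2 and Gls2 shown above held no match to the D-box. Since only 1 of the 28 windows and 3.66% of all promoters held one, this absence does not set them apart. Whether Dbp acts on these genes was not tested.

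**Figure D4:**
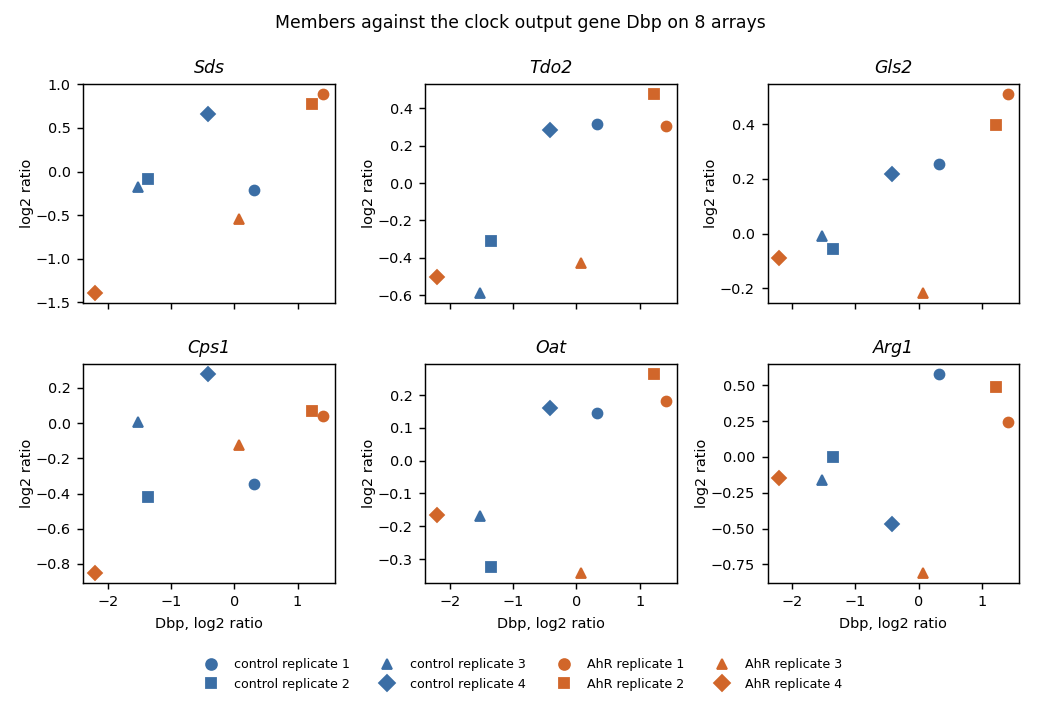
Log2 ratio of 6 enzymes (vertical axes, each with its own scale) against that of Dbp (horizontal axis) on the 4 control (blue) and 4 AhR arrays (orange). Tdo2 is high on the arrays of high Dbp, AhR replicate 3 apart, whereas in Sds the low value of -1.39 on AhR replicate 4 and the high values on AhR replicates 1 and 2 carry the slope.

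Set against the reference RNA, the enzymes stood close to 0, and so did some other genes of liver cells, though not all. Alb, the serum albumin of hepatocytes, was at -0.06 ± 0.33, Clec4f, a Kupffer cell lectin, at 0.19 ± 0.35 and Cps1 at -0.17 ± 0.36 (SD, n = 8 each). Farther from 0 were Cyp2c11 at 0.95 ± 0.32 and Cyp1a2 at -1.50 ± 0.43 (SD, n = 8 each). The median ratio was 0.31 over the 10 hepatocyte markers and -0.31 over the 11 measured pericentral hepatocyte genes. After loess normalization, the channel labelled as 14 cell lines gave signals near those of liver for Alb, Clec4f and Cps1. Which liver transcripts the reference held was not tested. A ratio near 0 therefore does not give the level of an enzyme relative to non-liver cells. The mean ratio over the 8 arrays lay between -0.38 (Prodh) and 0.41 (Hal), above 0 for 14 of the 32, and all 32 lay between -0.5 and 0.5, as did 96.3% of all named genes. The median of the set was -0.01, and 0.27 with median centring in place of loess. Enzymes of the opposite direction, chosen after their values were seen, lay lower: Phgdh and Psat1, which make serine, at -1.52 ± 0.64 and -1.37 ± 0.40, and Asns at -0.63 ± 0.28 (SD, n = 8 each). Without a dye swap these levels are open to dye bias, and they are descriptions without a test.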

How the data were processed

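Liver RNA of 4 control and 4 AhR pools was hybridised against a common reference on Agilent two-colour arrays, per the labels. The deposited scanner files give, for each spot, a median intensity and that of its local background, both used here, and a processed intensity, used as an alternative. The file headers name version 10.7.3.1 of Agilent's Feature Extraction software. A table of log2 values was deposited too, with its scale not stated. Its column medians were 0.00569 to 0.0165 and its columns correlated with the scanner log2 ratio of Cy5 over Cy3 at 0.990 to 0.994, so scale and direction follow from the files, while its exact dye correction is unknown.

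For the main values, normexp (offset 50) removed background and loess normalized each array, in limma 3.58.1 (R 4.3.3), with control and outlier spots at weight 0. Spots of the same probe were averaged, which gave 30367 probes, and 17891 with Cy5 well above background on at least 4 arrays were kept. Probes were named by matching RefSeq accessions, without version, to the RefSeq table of GRCr8, which named 11681 kept probes. Groups were compared with lmFit and eBayes, with Benjamini-Hochberg adjustment over all kept probes, and with two-sided exact permutation tests over the 70 splits (smallest p 0.0286). The p-values set the group difference against the spread between pools, which limma moderates over all kept probes.

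The members, the gene lists and the rules were chosen with earlier results of these data known. Values on every array are given, in each step, for the member of smallest p and that of largest SD within groups, and for Cps1 and Sds. Of the wider lists, the gene of smallest p in a step and Tat are named, with values on every array for Bhmt, Pipox and Tat. Of these wider lists, 2 genes that the rule names are not reported here. Values of Ass1, Asl, Gls2 and other members are given by range or difference. Alternatives covered background correction, normalization, Cy5 alone, the value table, the filter, blocks, variance models, array weights, probes of a gene and each array left out. Fits within slide rows and on Dbp were added after the data were seen. Same-numbered pools did not deviate together (r of 0.00, -0.06, 0.05 and -0.37), so the numbers were not used as pairs.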

Additional observations from a re-analysis of the deposited data

Results flagged for a closer look

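In 5 of the 64 sets of 4 arrays (32 enzymes in each group), 1 array lay far from the other 3 by Dixon's criterion, and chance gives about 1 in 20. Asl, the argininosuccinate lyase of the urea cycle, was at 0.86 on AhR replicate 1 against 0.12 to 0.16 on the other AhR arrays. Cdo1, the cysteine dioxygenase, was at 0.31 on AhR replicate 2 against -0.15 to -0.09. Bckdha, of branched-chain keto acid oxidation, was at -0.21 on control replicate 2 against 0.09 to 0.15 on the other control arrays. Sds, the serine dehydratase, was at 0.66 on control replicate 4 against -0.21 to -0.09. Prodh, the proline dehydrogenase, was at 0.37 on control replicate 1 against -0.48 to -0.42. The other Prodh probe gave 0.21 on that array against -0.59, -0.17 and -0.28 on control replicates 2 to 4, so the array stood less apart there. The 5 cases fell on 5 different arrays.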

How the results depend on the processing

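No enzyme and no other pathway gene reached an adjusted p of 0.05 in the 11 planned settings run with a test over all probes or in the 8 fits that left out 1 array. The median difference of the set lay between -0.03 and 0.02 over 12 planned settings and between -0.07 and 0.04 with 1 array left out. The share of all probes with an unadjusted p under 0.05, 1.62% as reported, lay between 0.961% (median centring) and 2.35% (no filter) over 11 planned settings and between 1.08% and 4.59% with 1 array left out. The level against the reference moved from -0.01 to 0.27 with median centring. The difference of Sds became 0.057 with array weights.

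With 1 array left out, the sign turned for some enzymes, none of which passed the test: Cps1 lay between -0.20 and 0.11, Arg1 between -0.22 and 0.21, Tdo2 between -0.13 and 0.19, Kynu between -0.16 and 0.030, Got1 between -0.36 and 0.14, and Sds between -0.43 and 0.33. Within row 1 of the slide the histidine median was -0.047, Kynu was 0.074, Hal -0.094, Ftcd -0.00043 and Bckdhb 0.023. Within row 2 the histidine median was 0.23, the sulfur median 0.040, Cps1 0.028, Tdo2 -0.047, Gpt -0.24 and Cth 0.040. The causes were not tested.

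With the replicate number as a block, 0 enzymes passed, the median difference stayed at -0.03 and 1.41% of all probes had an unadjusted p under 0.05, and the block changed no other call. The level against the reference was not run on Cy5 alone or on the value table. All 32 enzymes were above background on all 8 arrays, and the part of signal level in the precision was not tested.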
